A study of Mus musculus with 15 samples.

Results

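Genes typical of stromal cells and of the extracellular matrix were described in mouse LSK cells, a sorted fraction of hematopoietic stem and progenitor cells that carries few lineage markers and expresses Sca-1 and Kit. The set was a list of 45 gene symbols, each matched to a probe set annotated with exactly 1 symbol. Of these, 44 were measured among the 22180 genes of the arrays, 2 of them under a newer symbol (Ctgf as Ccn2 and Cyr61 as Ccn1), and Fbn1 was not analysed here. A gene with more than 1 probe set was read from the brightest of them.

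Each group held 5 arrays, which the submitters' design text calls biological replicates. The LSK cells with EV were kept for 18 h in MyeloCult M5300 medium with extracellular vesicles of AFT cells. The LSK cells without EV were kept for 18 h in the same medium with no vesicles added. The non-cultured LSK cells were taken after sorting. No strain, genotype, age or pooling is given in the labels, and AFT cells are not described there further. RNA of all 15 samples (500 pg each) was hybridised to Affymetrix Mouse Gene 2.0 arrays, and all values below are log2 signals of the deposited table unless another unit is named (the base is not stated there and was taken from the range). The comparison of the 44 genes addresses whether transcripts typical of stroma were higher in cells exposed to vesicles.

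Stromal cells of hematopoietic tissue build the matrix around stem cells and secrete signals that hold them in place. Fibrillar collagens, laminins and collagen IV form the scaffold, small glycoproteins and proteoglycans organise it, and metalloproteinases and their inhibitors set its turnover. Vesicles shed by cells carry RNA and protein of the cell of origin.

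Array medians over all probe sets ran between 4.62 and 4.74, and 0 of 105 pairs of arrays held identical values. With EV replicate 1 stood apart: it correlated at 0.964 on average with the rest of its group, where the remaining 4 had means of 0.974 to 0.976, and its median over genes was 5.00, against 4.86 to 4.89. It was the highest of all 15 arrays for 17 of the 44 genes and for 18.9% of all genes, so some of the values are also given without it. Kit, the stem cell factor receptor used in the sort, lay between 9.52 and 10.03 with EV, between 9.87 and 10.09 without EV and between 9.25 and 9.89 in non-cultured cells. Cd34, a progenitor surface marker, lay between 10.24 and 10.70 on all arrays. The other sort marker, Ly6a (Sca-1), was not analysed here. Of 7 measured lineage markers that the sort removes, 0 were called in any comparison. A gene was called where limma's Benjamini-Hochberg adjusted p over all 22180 genes was under 0.05. Among all genes, 0.198% were called with EV against without EV. Against non-cultured cells, 14.1% were called with EV and 13.6% without EV.

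The region around the transcription start is shown for the 2 genes called with EV against without EV (Ddr2 and Cald1, which has 2 annotated starts) and for Igfbp4 and Col4a2, which were called against non-cultured cells in both cultures. The windows are from RefSeq (GRCm38.p6), cover 250 bases before and 50 bases after the start, and are read 5′ to 3′ on the strand of the gene. Capitals mark the motifs searched on both strands.
Ddr2, chr1:170088895-170089194, minus strand: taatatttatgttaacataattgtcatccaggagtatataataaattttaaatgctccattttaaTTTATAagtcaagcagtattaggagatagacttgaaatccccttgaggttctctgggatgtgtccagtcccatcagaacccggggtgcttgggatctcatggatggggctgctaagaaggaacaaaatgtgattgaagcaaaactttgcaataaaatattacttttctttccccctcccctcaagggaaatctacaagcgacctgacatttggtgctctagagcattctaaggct
Cald1, chr6:34598254-34598553, plus strand: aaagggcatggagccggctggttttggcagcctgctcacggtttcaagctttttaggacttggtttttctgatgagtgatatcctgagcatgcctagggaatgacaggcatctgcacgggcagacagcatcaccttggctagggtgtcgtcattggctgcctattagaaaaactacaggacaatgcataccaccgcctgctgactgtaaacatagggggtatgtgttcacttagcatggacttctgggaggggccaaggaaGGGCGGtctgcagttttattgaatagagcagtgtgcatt
Cald1, chr6:34709194-34709493, plus strand: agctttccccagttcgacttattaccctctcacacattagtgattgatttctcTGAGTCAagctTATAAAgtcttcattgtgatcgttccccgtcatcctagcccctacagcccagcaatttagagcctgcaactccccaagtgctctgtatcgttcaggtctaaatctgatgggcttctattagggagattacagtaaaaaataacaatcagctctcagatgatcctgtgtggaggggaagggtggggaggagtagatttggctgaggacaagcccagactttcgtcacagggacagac
Igfbp4, chr11:99040994-99041293, plus strand: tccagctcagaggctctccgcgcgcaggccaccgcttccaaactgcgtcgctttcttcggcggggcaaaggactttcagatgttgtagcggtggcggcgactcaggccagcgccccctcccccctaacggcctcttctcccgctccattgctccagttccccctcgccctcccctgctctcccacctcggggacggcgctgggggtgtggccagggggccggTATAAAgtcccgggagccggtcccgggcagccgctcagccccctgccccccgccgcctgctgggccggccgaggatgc
Col4a2, chr8:11312555-11312854, plus strand: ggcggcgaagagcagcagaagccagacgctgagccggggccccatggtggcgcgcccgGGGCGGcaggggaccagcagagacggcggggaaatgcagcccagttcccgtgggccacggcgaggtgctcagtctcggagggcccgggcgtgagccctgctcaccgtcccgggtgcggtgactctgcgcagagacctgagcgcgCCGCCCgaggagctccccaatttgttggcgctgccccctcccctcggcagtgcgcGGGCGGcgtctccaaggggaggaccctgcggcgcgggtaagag
The motifs were the TATA box (TATAAA), the GC box (GGGCGG), the AP-1 site (TGANTCA, which reads the same on both strands) and the CArG box. In the Ddr2 window the TATA letters lay on the opposite strand at positions -185 to -180 from the start. The second Cald1 window held an AP-1 match at -197 to -191 and TATA letters at -186 to -181, while the first held a GC box only, past the start. Igfbp4 had TATA letters at -28 to -23, and Col4a2 had 3 GC boxes. The Col4a2 window overlaps that of Col4a1, on the opposite strand, by 78 bases, with start sites 21 bases apart. Of the 44 genes, 29 matched the promoter table, with 32 windows, of which 7 held TATA letters, 19 a GC box, 2 an AP-1 match and 1 a CArG box. Among all 32851 windows of the table the shares were 13.6% for the TATA box, 35.7% for the GC box, 7.81% for the AP-1 site and 1.63% for the CArG box. These matches are descriptions of the letters only.

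**Figure D1:**
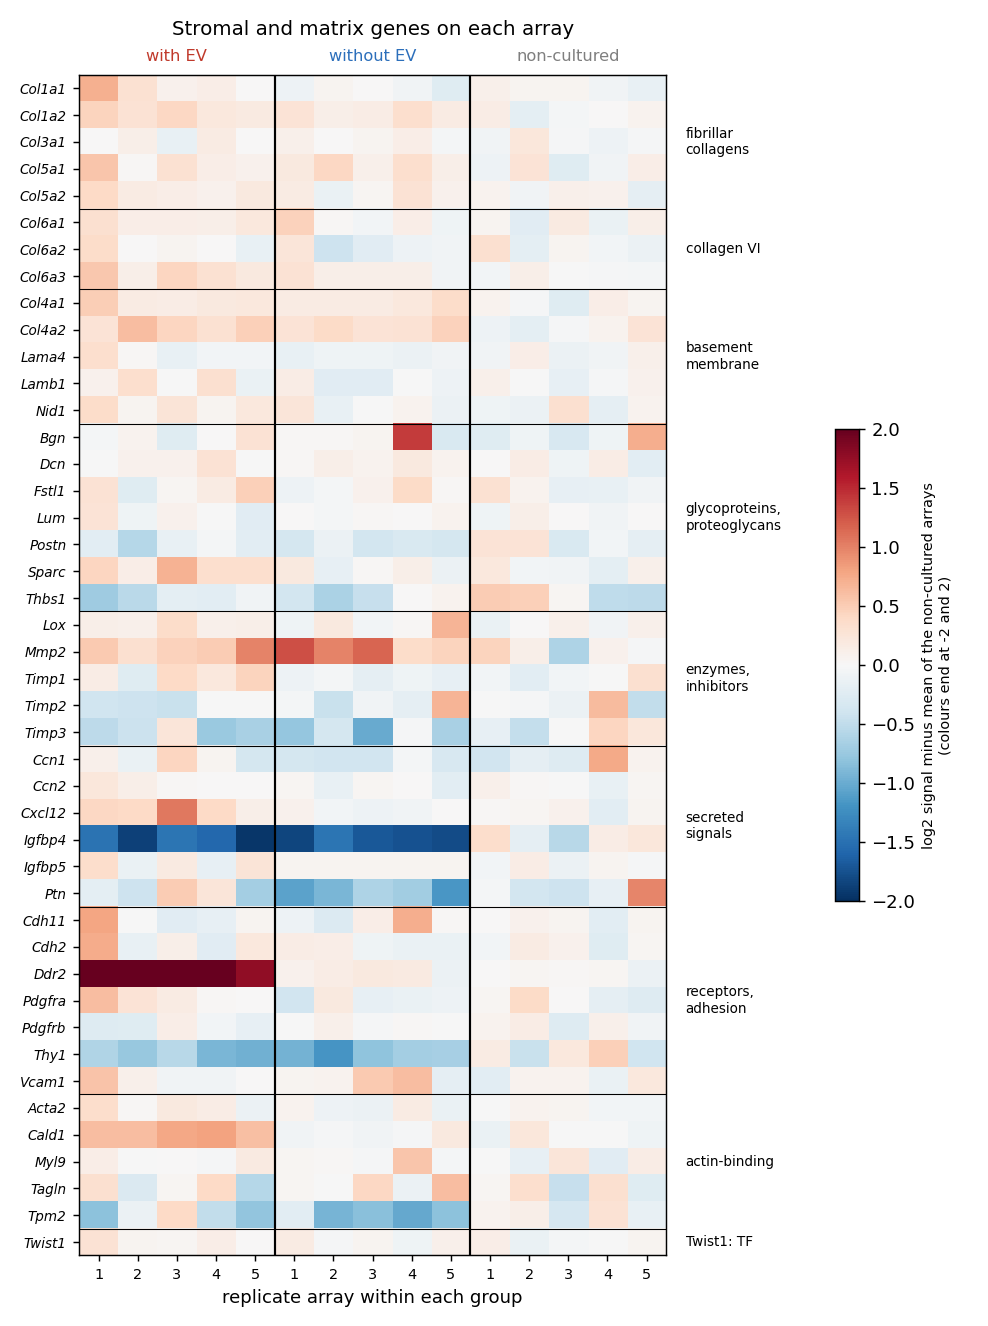
Log2 signal of each of the 44 genes (rows, by role) on each array (columns), minus the gene's mean over the non-cultured arrays; red is higher, blue is lower, and colours end at -2 and 2. Ddr2 is deep red on all 5 arrays with EV, and Igfbp4 is deep blue on all 10 cultured arrays.

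The first question was whether LSK cells with EV differed from LSK cells without EV in stromal transcripts. Of the 44 genes, 2 were called higher, Ddr2 and Cald1, and 0 were called lower, while 0.18% of all genes were called higher and 0.018% lower in this comparison. Since the list was drawn up with earlier results of these data known, the count is a description. At an unadjusted p under 0.05, 9 of the 44 were higher and 0 lower, against 3.57% and 3.25% of all genes. The arrays of both groups did not overlap for 3 of the 44, all higher with EV (Ddr2, Cald1 and Cxcl12), against 0.762% of all genes higher and 0.437% lower. The median difference over the 44 genes was 0.09, with 31 above 0 and 13 below. Over all genes it was 0.01, with 52.8% above 0. Without with EV replicate 1, the same 2 genes were called, the median over the 44 was 0.05, 30 were above 0, and 8 were higher at an unadjusted p under 0.05. In bulk RNA a change in the number of cells that express a gene and a change in RNA per cell cannot be told apart, and the source of each transcript was not tested.

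Ddr2 encodes a receptor tyrosine kinase that is activated by fibrillar collagen and is known from fibroblasts. Its signals with EV were 5.56, 6.20, 6.70, 5.97 and 5.31 on replicates 1 to 5, against 3.63, 3.68, 3.73, 3.72 and 3.42 without EV. In non-cultured cells they were 3.55, 3.57, 3.57, 3.58 and 3.42. All 5 arrays with EV lay above all 10 others, and the spread was wider with EV (SD 0.55) than without EV (SD 0.13) or in non-cultured cells (SD 0.07; n = 5 each). Ddr2 rose 4.96-fold with EV against without EV, a log2 difference of 2.31 (SE 0.19, limma adjusted p = 6.77e-06). It held in 25 of 25 pairs of 1 array from each group, and 6 of the 22180 genes rose more.

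Cald1 encodes caldesmon, which binds actin and calmodulin and restrains the actin-activated ATPase of myosin. It had signals of 4.92, 4.92, 5.07, 5.11 and 4.90 with EV, against 4.22, 4.28, 4.23, 4.27 and 4.49 without EV. The non-cultured arrays had 4.17, 4.53, 4.28, 4.30 and 4.21. The groups with and without EV did not overlap, and all arrays without EV lay within the range of non-cultured cells. Cald1 rose 1.61-fold with EV, a log2 difference of 0.68 (SE 0.09, limma adjusted p = 0.00128), in 25 of 25 pairs. Ddr2 and Cald1 were called in this comparison after each of the 15 single arrays was left out, with adjusted p up to 0.000693 for Ddr2 and 0.0115 for Cald1 over all alternatives in which they were measured.

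The other actin-binding and contractile genes did not pass the test. Tpm2, a tropomyosin that lies along actin filaments, averaged 4.91 with EV and 4.51 without EV (0.40, SE 0.22, limma adjusted p = 0.765). Acta2, smooth muscle actin, differed by 0.14 (SE 0.09), Tagln, the actin-bundling protein transgelin, by -0.21 (SE 0.21), and Myl9, a regulatory light chain of myosin, by -0.06 (SE 0.12). Without with EV replicate 1 the differences were 0.51 for Tpm2, 0.08 for Acta2, -0.30 for Tagln and -0.08 for Myl9. The set of 5 thus held 1 call.

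Of the 6 secreted signals, 0 were called and all 6 had differences above 0, from 0.04 to 0.78. Without with EV replicate 1, 4 of the 6 were above 0, with Igfbp4 at -0.01 and Igfbp5 at -0.02. Cxcl12, the chemokine that keeps stem cells in their niche through the receptor Cxcr4, had 4.94, 4.92, 5.57, 4.92 and 4.63 with EV, against 4.61, 4.47, 4.42, 4.44 and 4.53 without EV. The highest array without EV lay just below the lowest array with EV. The difference was 0.50 (SE 0.13), with an unadjusted p of 0.00171 and a limma adjusted p of 0.33. Ptn, the heparin-binding growth factor pleiotrophin, had 4.99, 4.77, 5.70, 5.43 and 4.51 with EV, against 4.12, 4.28, 4.57, 4.49 and 4.03 without EV. It was higher with EV in 24 of 25 pairs by 0.78 (SE 0.26, limma adjusted p = 0.538), and 1 pair overlapped. Igfbp4, which binds insulin-like growth factors, differed by 0.04 (SE 0.16), and Ccn1, a matricellular signal, by 0.32 (SE 0.19, limma adjusted p = 0.776).

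Among the 5 fibrillar collagen genes, 0 were called with EV against without EV. Col1a1, the main chain of collagen I, had 5.61, 5.21, 4.98, 5.03 and 4.91 with EV, against 4.79, 4.95, 4.90, 4.83 and 4.66 without EV. The difference of 0.32 (SE 0.12, limma adjusted p = 0.596) was 0.21 without with EV replicate 1, the highest array. Col1a2, the second chain of the same triple helix, differed by 0.10 (SE 0.09), Col5a2 by 0.10 (SE 0.10), Col5a1 by -0.01 (SE 0.12) and Col3a1 by -0.02 (SE 0.09). The 3 chains of collagen VI, which forms beaded filaments next to cells, had differences of 0.09 (Col6a1), 0.17 (Col6a2) and 0.20 (Col6a3), and 0 were called. The 5 basement membrane genes, for collagen IV, laminin chains and nidogen, had differences from 0.03 (Col4a1) to 0.20 (Lamb1), with 0 called. Without with EV replicate 1 the difference was -0.03 for Col4a1, 0.04 for Lama4 (0.12 with it) and 0.09 for Col6a2. On a second, dimmer probe set the differences were 0.32 for Col1a2, 0.18 for Col5a1, 0.29 for Col6a1 and -0.02 for Nid1. None of these was called (limma adjusted p = 0.875, 0.845, 0.709 and 0.993 in that order, over all probe sets).

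Of the 7 glycoprotein and proteoglycan genes, 0 were called. Sparc, a collagen-binding glycoprotein, had 4.71, 4.41, 4.96, 4.60 and 4.61 with EV, against 4.47, 4.10, 4.29, 4.39 and 4.16 without EV. With EV replicate 2 lay below without EV replicate 1, and the other arrays with EV lay above all arrays without EV. Its difference was 0.38 (SE 0.11, unadjusted p = 0.00408, limma adjusted p = 0.464). The small leucine-rich proteoglycan genes had differences of -0.22 (SE 0.27) for Bgn, 0.00 (SE 0.09) for Dcn after rounding and -0.01 (SE 0.09) for Lum. Bgn, biglycan, had 1 array far above its group, without EV replicate 4 at 8.16, while the other 4 lay between 6.46 and 6.81. Among matrix enzymes and inhibitors, Timp1 differed by 0.30 (SE 0.12, limma adjusted p = 0.669) and Mmp2 by -0.29 (SE 0.21, limma adjusted p = 0.819), the lowest difference of the 44.

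Of the 7 receptors and adhesion molecules, only Ddr2 was called. Pdgfra, a receptor for platelet-derived growth factor that marks mesenchymal cells, averaged 3.80 with EV and 3.47 without EV (0.33, SE 0.14, limma adjusted p = 0.694). Pdgfrb differed by -0.14 (SE 0.10), Thy1 by 0.10 (SE 0.17), Vcam1 by -0.11 (SE 0.16), Cdh2 by 0.15 (SE 0.15) and Cdh11 by -0.01 (SE 0.19). Without with EV replicate 1 the differences were 0.00 for Cdh2, -0.19 for Cdh11, -0.23 for Vcam1 and 0.23 for Pdgfra. Twist1, a transcription factor of mesenchymal cells, differed by 0.06 (SE 0.08). With 5 arrays a group and a median SE of 0.13 over genes, differences of this size could not be told from 0.

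**Figure D2:**
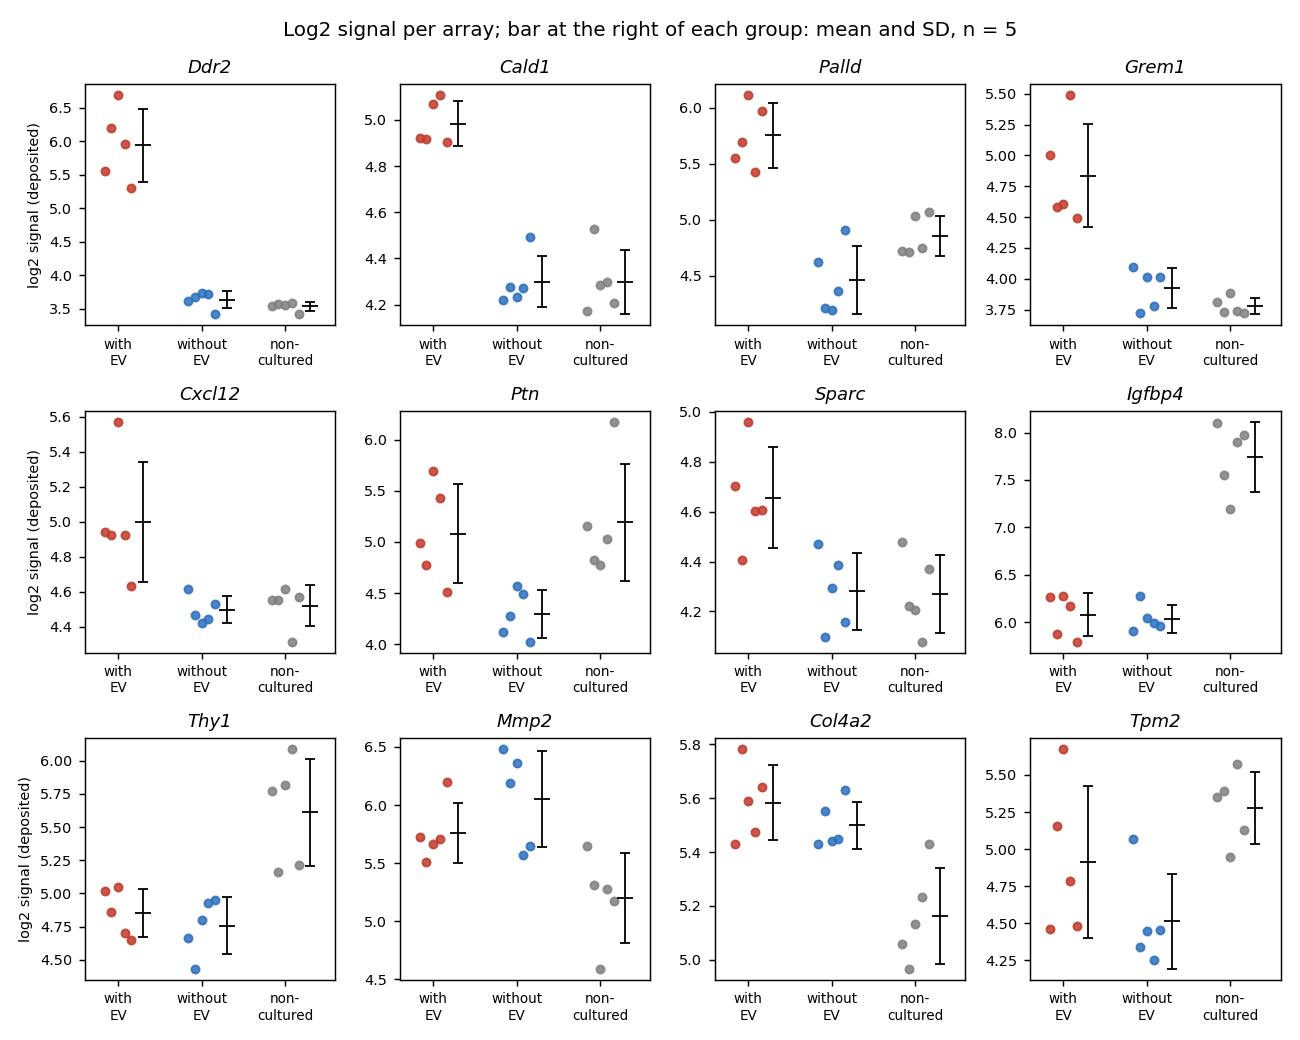
Deposited log2 signal per array (points) for 10 of the 44 genes and for Palld and Grem1 of the wider matrix list, with the mean and SD of each group of 5 at its right. The arrays with EV lie above all others for Ddr2, Cald1, Palld, Grem1 and, by a small margin, Cxcl12. Igfbp4 is lower in both cultured groups than in non-cultured cells.

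A wider list of 102 other stromal and matrix genes, of which 95 were measured, was examined in the same fit. With EV against without EV, 2 were called higher, Palld and Grem1, and 0 lower, against 0.18% and 0.018% of all genes. The median difference was 0.06, with 66 above 0 and 29 below, while 52.8% of all genes were above 0. Palld encodes palladin, a scaffold of actin bundles. It had 5.55, 5.70, 6.12, 5.43 and 5.97 with EV, against 4.62, 4.21, 4.20, 4.36 and 4.91 without EV, and 4.73, 4.71, 5.04, 4.74 and 5.07 in non-cultured cells. All arrays with EV were above all others, and Palld rose by 1.29 (SE 0.16, limma adjusted p = 0.000725) with EV. Grem1 encodes gremlin 1, a secreted antagonist of bone morphogenetic proteins. Its signals were 5.00, 4.58, 4.61, 5.49 and 4.49 with EV, against 4.09, 3.72, 4.02, 3.78 and 4.02 without EV. It rose by 0.91 (SE 0.16, limma adjusted p = 0.0183), again with no overlap. The Grem1 call ended when with EV replicate 1 (limma adjusted p = 0.0619) or replicate 2 or 4 of the cells without EV was left out, with adjusted p up to 0.156 over the alternatives.

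Pcolce, which enhances the cleavage of procollagen, and Ltbp1, which binds latent TGF-beta, had the next lowest p of that list. Pcolce averaged 6.23 with EV and 5.72 without EV, with 25 of 25 pairs higher, and its difference of 0.51 (SE 0.10) had a limma adjusted p of 0.0604. Ltbp1 differed by 0.36 (SE 0.10, limma adjusted p = 0.33). Dlk1, a transmembrane protein of stromal lines and fetal tissue, averaged 4.73 with EV and 4.51 without EV (0.22, SE 0.13, limma adjusted p = 0.777, and 0.11 without with EV replicate 1). Of 13 markers of stromal lines that are not among the 44 genes (some are in the wider list), 0 were called, and their mean signal per array ran from 5.32 to 5.55 with EV and from 5.44 to 5.59 without EV. Likewise 0 of 11 macrophage, 0 of 8 measured megakaryocyte and platelet, and 0 of 8 endothelial markers were called with EV against without EV. Among all genes, 0.18% were called higher and 0.018% lower there. Counts of 0 in lists this short lie near those shares.

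**Figure D3:**
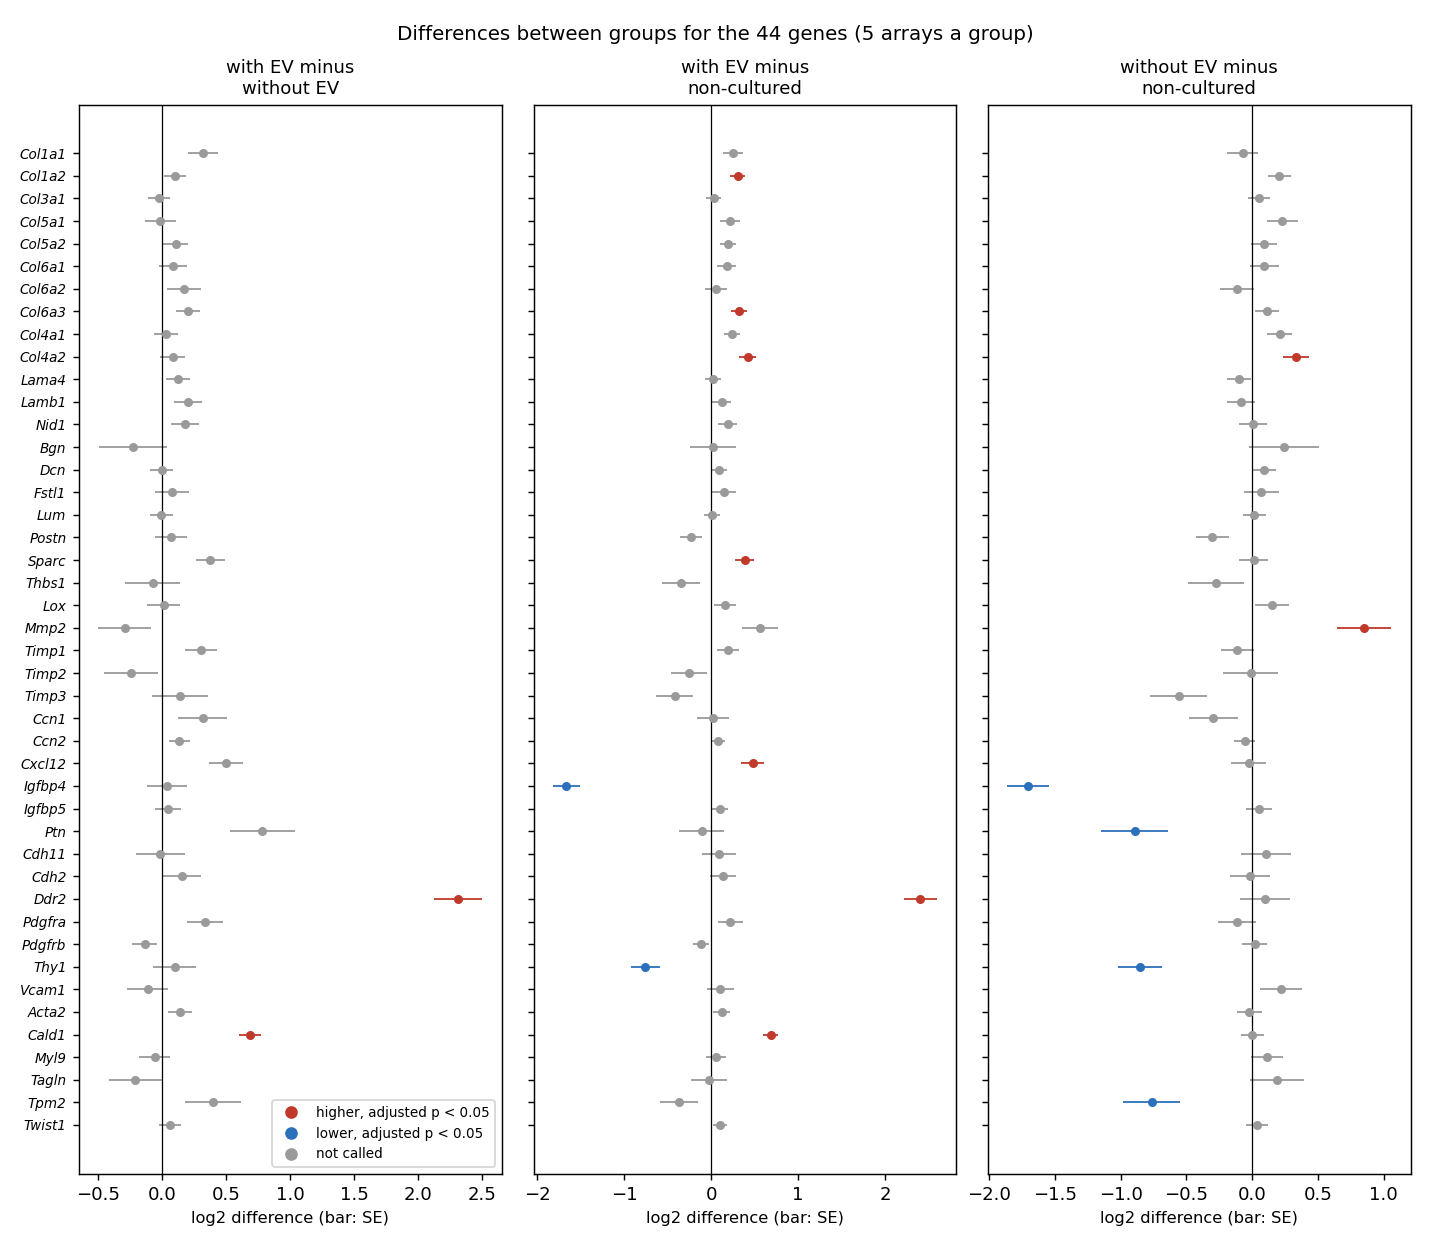
Log2 difference of each of the 44 genes in the 3 comparisons (points, with the standard error of limma as bars; 5 arrays a group); colour marks an adjusted p under 0.05. Ddr2 and Cald1 alone are coloured with EV against without EV, while 9 genes are coloured with EV against non-cultured cells and 6 without EV against non-cultured cells.

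The second question was how the same genes stood in cultured against non-cultured cells. Both of these comparisons use the same non-cultured arrays, so their values are given side by side and no overlap between them is read. Relative to non-cultured cells, cells with EV had 7 of the 44 genes called higher and 2 lower, against 6.28% of all genes higher and 7.85% lower. Without EV against non-cultured cells, 2 were higher and 4 lower, against 6.75% and 6.88% of all genes. The arrays did not overlap for 6 higher and 2 lower genes with EV (5.06% and 6.18% of all genes) and for 1 higher and 3 lower without EV (5.89% and 6.1%). The median difference was 0.10 with EV, with 34 of 44 above 0, and 0.01 without EV, with 25 of 44 above 0. Over all genes it was 0.04 with EV, with 57.8% above 0, and 0.01 without EV, with 52.4% above 0. When with EV replicate 1 was left out, the median with EV was 0.05 over the 44 genes and 0.01 over all genes. Fewer than 34 of the 44 were then above 0, so part of the shift with EV rested on that array. The count of 7 rested on small differences: it was 4 without with EV replicate 3, without non-cultured replicate 3 or without non-cultured replicate 4, and 3 when each array was centred on its median. That centring also turned the split of all called genes with EV against non-cultured cells to 996 higher and 2122 lower, where the values as deposited gave 1394 and 1741.

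The 2 genes called with EV against without EV were called against non-cultured cells too. Ddr2 rose 5.31-fold with EV (2.41, SE 0.19, limma adjusted p = 3.25e-07), and without EV its difference from non-cultured cells was 0.10 (SE 0.19, adjusted p = 0.843). Cald1 rose by 0.69 with EV (SE 0.09, limma adjusted p = 4.91e-05), and without EV its difference was 0.00 after rounding (SE 0.09, adjusted p = 0.994).

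Igfbp4 showed the largest fall of the 44 in culture. It had 6.26, 5.88, 6.28, 6.17 and 5.80 with EV and 5.91, 6.28, 6.05, 5.99 and 5.96 without EV, against 8.10, 7.56, 7.19, 7.90 and 7.97 in non-cultured cells. All 10 cultured arrays lay below all 5 non-cultured ones. The difference from non-cultured cells was -1.67 with EV (SE 0.16, limma adjusted p = 2.27e-06) and -1.71 without EV (SE 0.16, adjusted p = 1.91e-06). Thy1, a surface glycoprotein of fibroblasts and T cells that is found at low level on mouse stem cells, had 5.01, 4.86, 5.05, 4.70 and 4.65 with EV and 4.66, 4.43, 4.80, 4.93 and 4.95 without EV, against 5.77, 5.16, 5.82, 6.09 and 5.21 in non-cultured cells. Again the cultured arrays did not overlap with the non-cultured ones. Thy1 fell by 0.76 with EV (SE 0.17, limma adjusted p = 0.00567) and by 0.86 without EV (SE 0.17, adjusted p = 0.00227).

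Mmp2, gelatinase A, which cuts collagen IV and denatured collagens, averaged 5.76 ± 0.26 with EV and 6.05 ± 0.42 without EV, against 5.20 ± 0.38 in non-cultured cells (SD, n = 5 each). It rose by 0.85 without EV (SE 0.21, limma adjusted p = 0.0105, 24 of 25 pairs), while the difference with EV was 0.56 (SE 0.21, adjusted p = 0.0885). Timp3, a matrix-bound inhibitor of metalloproteinases, averaged 4.74 with EV and 4.60 without EV, against 5.16 in non-cultured cells, with differences of -0.42 (adjusted p = 0.241) and -0.56 (limma adjusted p = 0.108). Timp1 and Timp2 were not called in either.

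Ptn was the lowest in cells without EV. Its non-cultured arrays had 5.15, 4.83, 4.77, 5.03 and 6.17, all above the arrays without EV and overlapping those with EV. Ptn fell by 0.89 without EV (SE 0.26, limma adjusted p = 0.0287), and its difference with EV was -0.11 (SE 0.26, adjusted p = 0.843). The call without EV ended without non-cultured replicate 1 or 5 or without replicate 1, 2 or 5 of the cells without EV, with adjusted p up to 0.11 over the alternatives. Tpm2 averaged 4.91 ± 0.51 with EV and 4.51 ± 0.32 without EV, against 5.28 ± 0.24 in non-cultured cells (SD, n = 5 each). It fell by 0.76 without EV (SE 0.22, limma adjusted p = 0.026), and its difference with EV was -0.37 (SE 0.22, adjusted p = 0.316). Leaving out each array in turn kept that call in 8 of 15 cases, and it ended without non-cultured replicate 1, 2 or 4 or without any of replicates 2 to 5 of the cells without EV. For Mmp2, Ptn and Tpm2 the difference between both cultures is the comparison with EV against without EV, which called none of them.

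On their brightest probe sets, the collagen genes moved by small amounts in culture. Col4a2, a chain of the basement membrane collagen, had 5.43, 5.78, 5.59, 5.47 and 5.64 with EV and 5.43, 5.55, 5.44, 5.45 and 5.63 without EV, against 5.06, 4.97, 5.13, 5.23 and 5.43 in non-cultured cells. Non-cultured replicate 5 matched the lowest cultured arrays, and the other 4 lay below all of them. Col4a2 rose by 0.42 with EV (SE 0.10, limma adjusted p = 0.00765) and by 0.34 without EV (SE 0.10, adjusted p = 0.0299). The second of these calls ended without any of non-cultured replicates 1 to 3 and without replicate 2 or 5 of the cells without EV. Col4a1, its partner chain, was higher than in non-cultured cells on every cultured array, with differences of 0.24 with EV (adjusted p = 0.107) and 0.21 without EV (limma adjusted p = 0.174).

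Col1a2 had 5.52, 5.37, 5.49, 5.29 and 5.27 with EV and 5.36, 5.19, 5.22, 5.41 and 5.24 without EV, against 5.23, 4.89, 5.04, 5.09 and 5.14 in non-cultured cells. The arrays with EV lay above the non-cultured ones without overlap. Col1a2 rose by 0.31 with EV (SE 0.09, limma adjusted p = 0.0231), and its difference without EV was 0.21 (SE 0.09, adjusted p = 0.139). Its second, dimmer probe set differed more, by 0.88 with EV (SE 0.24, limma adjusted p = 0.0315 over all probe sets). Without EV that probe set differed by 0.55 (SE 0.24, limma adjusted p = 0.200). With the mean of both probe sets, Col1a2 was called without EV too (adjusted p = 0.0473). Col6a3 had 4.57, 4.14, 4.44, 4.33 and 4.21 with EV and 4.30, 4.14, 4.14, 4.14 and 3.95 without EV, against 3.97, 4.14, 4.02, 3.99 and 3.99 in non-cultured cells. The lowest array with EV and the highest non-cultured array both rounded to 4.14. Col6a3 rose by 0.32 with EV (SE 0.09, limma adjusted p = 0.0304), and its difference without EV was 0.11 (adjusted p = 0.546).

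Cxcl12 and Sparc were the remaining calls with EV against non-cultured cells. Cxcl12 had 4.55, 4.55, 4.61, 4.31 and 4.57 in non-cultured cells, below all arrays with EV, and it rose by 0.48 with EV (SE 0.13, limma adjusted p = 0.0233). Sparc had 4.48, 4.22, 4.21, 4.08 and 4.37 in non-cultured cells, and it rose by 0.39 with EV (SE 0.11, limma adjusted p = 0.0287). Without EV their differences were -0.02 for Cxcl12 (limma adjusted p = 0.954) and 0.01 for Sparc (adjusted p = 0.978). The calls with EV of these 4 genes depended on single arrays: Cxcl12 was called in 14 of 15 such fits, Col1a2 in 12, Sparc in 10 and Col6a3 in 8. The Cxcl12 call ended without non-cultured replicate 4, and that of Col1a2 without with EV replicate 3 or non-cultured replicate 2 or 3. The Sparc call ended without with EV replicate 1 or 3 or non-cultured replicate 2, 3 or 4, and that of Col6a3 without with EV replicate 1, 3 or 4 or non-cultured replicate 1, 3, 4 or 5. Over all alternatives, adjusted p for the 4 genes reached 0.108, 0.066, 0.105 and 0.122 in the same order. The calls also depended on the processing. In the settings that did not leave out 1 array, Cxcl12 was called in 5 of 9, Col1a2 in 6 of 9, Sparc in 4 of 8 and Col6a3 in 5 of 8. Centring on the median ended all 4 calls, and quantile normalization ended those of Cxcl12 and Sparc.

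Of the 7 genes with a second probe set, 6 had probe sets of opposite sign in at least 1 comparison. With EV against without EV these were Bgn, Ccn2, Cdh2, Col5a1 and Nid1, for example 0.15 on the brighter and -0.03 on the dimmer probe set of Cdh2. Without EV against non-cultured cells they were Bgn, Ccn2, Col5a1, Col6a1 and Nid1. The dimmer probe set of Bgn differed by -0.62 without EV against non-cultured cells, where the brighter one differed by 0.24, and the dimmer one of Nid1 differed by -0.21 with EV against non-cultured cells, where the brighter one differed by 0.19. None of these values was called, and Col1a2 alone kept its sign throughout. Thbs1, thrombospondin 1, which platelets and stromal cells release, lay between 7.59 and 8.23 with EV and between 7.68 and 8.38 without EV, against 8.82, 8.78, 8.35, 7.79 and 7.78 in non-cultured cells. Non-cultured replicates 4 and 5 were at the level of the cultured arrays, and the differences of -0.35 with EV and -0.28 without EV were not called.

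In the wider list, 14 of 95 genes were higher and 6 lower with EV against non-cultured cells, and 10 were higher and 6 lower without EV. Among all genes the shares were 6.28% higher and 7.85% lower with EV, and 6.75% and 6.88% without EV. Fn1, fibronectin, was the largest rise of that list. It had 7.63, 8.60, 8.69, 8.05 and 8.09 with EV and 8.96, 8.78, 8.68, 8.10 and 7.68 without EV, against 4.20, 4.57, 4.51, 3.82 and 3.92 in non-cultured cells. The difference was 4.01 with EV and 4.23 without EV (SE 0.25, limma adjusted p = 2.94e-08 and 1.61e-08 in that order), with no overlap. Mmp14, a membrane-bound metalloproteinase that activates pro-Mmp2, rose by 1.44 with EV and by 1.63 without EV, and Vcan, the proteoglycan versican, by 1.32 and 1.63. Grem1, Palld, Pcolce, Ltbp1 and Efemp1 were called with EV, with differences of 1.06, 0.90, 0.72, 0.55 and 0.44. In the same order their differences without EV were 0.15, -0.40, 0.21, 0.19 and 0.06, with none called. The difference between both cultures is the comparison with EV against without EV, which called only Grem1 and Palld of them. Angpt1, the ligand of the receptor Tek, differed by -2.11 with EV and by -1.98 without EV, and Vim, the intermediate filament vimentin, by -0.89 and -1.16.

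Some markers of LSK cells and of other blood and vessel cells were called against non-cultured cells as well. Among all genes, 6.28% were called higher and 7.85% lower with EV, and 6.75% and 6.88% without EV. Of 10 measured LSK and hematopoietic markers, 3 were higher with EV and 5 without EV than in non-cultured cells, and 0 were lower. Their mean signal per array ran from 8.48 to 8.85 with EV and from 8.76 to 8.92 without EV, against 8.26 to 8.58. Of 11 macrophage markers, 4 were higher in each cultured group than in non-cultured cells, and their mean signal per array ran from 4.95 to 5.21 with EV and from 4.92 to 5.08 without EV, against 4.47 to 4.56. Of 8 megakaryocyte and platelet markers, 2 were higher in each, with means per array from 5.79 to 6.26 with EV and from 5.85 to 6.42 without EV, against 5.21 to 5.44. Of 8 endothelial markers, 2 were higher and 1 lower in each, with means from 5.37 to 5.58 with EV and from 5.43 to 5.59 without EV, against 5.29 to 5.67. Array signals have no true zero, and the part of these cells in the differences above was not tested.

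**Figure D4:**
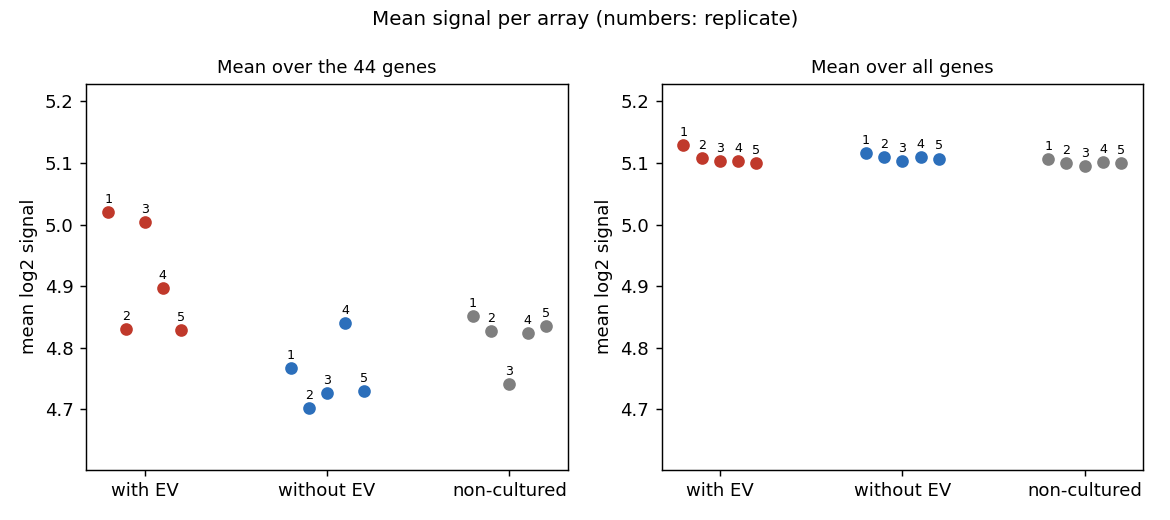
Mean log2 signal per array over the 44 genes (left) and over all 22180 genes (right), with replicate numbers beside the points. Over the 44 genes the arrays with EV run from 4.83 to 5.02, those without EV from 4.70 to 4.84 and the non-cultured ones from 4.74 to 4.85, while over all genes every array lies between 5.10 and 5.13 after rounding.

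The mean over the 44 genes set the arrays side by side as wholes. It was 5.02, 4.83, 5.00, 4.90 and 4.83 with EV, against 4.77, 4.70, 4.73, 4.84 and 4.73 without EV, and 4.85, 4.83, 4.74, 4.82 and 4.83 in non-cultured cells. With EV replicates 1 and 3 were the highest of the 15, replicates 2 and 5 lay within the range of the other groups, and without EV replicate 4 was above the lowest arrays with EV. The mean over all genes hardly differed between arrays, but their median over all genes did. It ran from 4.86 to 5.00 with EV, from 4.83 to 4.89 without EV and from 4.81 to 4.85 in non-cultured cells. No test of the mean over the 44 genes is given.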

How the data were processed

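The deposited table holds 41345 probe sets on 15 arrays. The deposited values, taken as log2 signal from their range (1.40 to 13.0), were used as they are. The submitters' processing notes name MAS5 alone, and neither the log base nor the background correction nor the normalization is stated there. No batch, date or animal is labelled. Values that repeat exactly on 2 or more arrays occurred for 21 of the 44 genes and for 35.3% of all genes.

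The platform annotation given with the table names 23521 probe sets with 1 symbol and 1814 with several, and 16010 are unnamed here; 1082 genes had several probe sets. The brightest probe set per gene left 22180 genes. Group means were estimated jointly from the 15 arrays by lmFit and eBayes of limma 3.58.1 (R 4.3.3; 12 residual and 3.66 prior degrees of freedom), with two-sided tests, Benjamini-Hochberg adjustment over all genes and no minimum fold. Standard errors are the moderated ones. The fit was tested on simulated data.

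The members, the wider list, the markers and the alternatives were chosen with earlier results of these data known. All 45 members could be named; of the wider list, the called genes, the 4 with the smallest p with EV against without EV, Fn1 and Dlk1; of the markers, those that define LSK cells. The number of arrays limits the precision, and p-values set a mean difference against the spread between these arrays. Animals and pooling are not labelled, so whether that spread is one between animals is not known. Alternatives were quantile normalization, centring on the median, leaving out the dimmest 40% of genes, the mean of probe sets, adjustment over all probe sets, eBayes with trend and robust, only the 2 groups compared, a replicate block, each array left out, and, added after the data were seen, non-cultured replicates 1 to 3 alone.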

Additional observations from a re-analysis of the deposited data

Results flagged for a closer look

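Single arrays far from the other 4 of their group were sought with Dixon's test at 5% in 201 groups of values, 3 for each of 67 genes (the 44 genes and 23 of the wider list). Such an array was found in 22 groups (10.9%), where chance gives about 1 in 20. Among the cells with EV, replicate 1 was high for Col4a1 (5.82, next 5.53), Vcam1 (4.45, next 3.98) and Cdh11 (6.51, next 5.80), replicate 3 was high for Lox (3.86, next 3.61), and replicate 5 was low for Tpm1 (6.52, next 6.99). Without EV, replicate 4 was high for 5 genes: Bgn (8.16, next 6.81), Ccn1 (4.69, next 4.42), Myl9 (6.0, next 5.49), Dlk1 (4.79, next 4.48) and Actn1 (7.03, next 6.64). Also without EV, replicate 1 was high for Tpm2 (5.07), replicate 2 for Postn (2.90) and Pdgfrb (6.33), and replicate 5 for Cald1 (4.49) and Col4a1 (5.70). In non-cultured cells, replicate 2 was high for Col3a1 (4.72) and Col6a3 (4.14), replicate 4 was low for Cxcl12 (4.31) and Cdh11 (5.52), and replicate 5 was low for Ddr2 (3.42) and high for Bgn (7.49) and Ptn (6.17). Without EV replicate 5, high for Cald1, was still below every array with EV.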

How the results depend on the processing

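Under 24 alternatives, 15 of which left out 1 array, 0 called differences reversed. With EV against without EV, 2 members were called higher under all of them except without the dimmest 40% of genes, which left out Ddr2 and kept Cald1 (1). Grem1 left the calls of the wider list in the same setting, because it was not tested there, with only the 2 groups compared and under the replicate block (1 each, Palld), and with 1 array left out that count ran from 1 to 3. Without EV against non-cultured cells, members called higher were 1 after median centring and with trend and robust, 1 to 2 with 1 array left out, and 3 with the mean of a gene's probe sets (Col1a2 added). Members called lower there ran from 2 to 4 with 1 array left out. With EV against non-cultured cells, members called higher were 3 after median centring, with only the 2 groups compared and against non-cultured replicates 1 to 3 alone, 4 without the dimmest 40% of genes, and 4 to 7 with 1 array left out. The wider list gave 8 against non-cultured replicates 1 to 3 alone and 11 to 14 with 1 array left out. The causes were not tested, apart from genes not tested under the dim filter, which keeps 28 of the 44 members. The median over members ran from 0.05 to 0.13 with EV against without EV, from 0.03 to 0.13 with EV against non-cultured cells and from -0.01 to 0.05 without EV against non-cultured cells.

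Arrays share replicate numbers across groups, but correlations of same-numbered arrays about their group means ran from 0.0231 to 0.187 with EV against without EV, and from -0.125 to 0.0585 in the other comparisons, and in 3 of 15 cases (5 numbers in each of 3 comparisons, which share arrays) the own number correlated best, so no pairing was read. With the replicate block, members called lower without EV against non-cultured cells were 2 (Ptn and Tpm2 left), and Ddr2 and Cald1 kept their calls with EV against without EV (adjusted p = 2.51e-05 and 0.0115). Without a measure of background in the table, dim signals could not be set apart from it.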

Other observations

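The order of the arrays with EV was looked at for Ddr2, Cald1, Cxcl12, Sparc, Ptn, Palld, Grem1 and Pcolce, after their values were seen. The full orders differed between genes, while the highest or lowest array was often the same. Replicate 3 was the highest of the 5 for Ddr2, Cxcl12, Sparc, Ptn and Palld, replicate 4 for Cald1 and Grem1, and replicate 1 for Pcolce. Replicate 5 was the lowest for Ddr2, Cald1, Cxcl12, Ptn and Grem1, replicate 2 for Sparc and Pcolce, and replicate 4 for Palld. Among the 40 genes called higher with EV against without EV, replicate 3 was the highest of the 5 for 22 and replicate 5 the lowest for 24. Over all 22180 genes, replicate 3 was the highest of these 5 arrays for 16.2% and replicate 5 the lowest for 20.3%. Over the 44 stromal and matrix genes, the highest array with EV was replicate 1 for 19 and replicate 3 for 11, and the lowest was replicate 5 for 16. These are counts over genes of the same 5 arrays, with no test.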
